A study of Mus musculus with 4 samples.

Results

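The genes described here are 10 members of the bone morphogenetic protein (BMP) and transforming growth factor beta (TGF-beta) receptor pathway: the co-receptor gene Rgmb, the receptor genes Bmpr1a, Bmpr2, Acvr1, Tgfbr1, Tgfbr2 and Tgfbr3, and the signal transducer genes Smad1, Smad5 and Smad7. They were chosen from 17097 named genes with their signals on these same arrays already known, Rgmb for its large difference between the labels and the others as genes of its pathway. Their differences are therefore given as a description, without p-values. Where the fit over all genes called one of the 10, the call is stated only as an output of that fit and supports nothing. Every probe set whose only gene symbol was one of the 10 was taken, which gave 24 probe sets. Rgmb had 4 of them, Acvr1, Tgfbr1, Tgfbr2 and Smad5 had 3 each, Bmpr2, Tgfbr3 and Smad1 had 2 each, and Bmpr1a and Smad7 had 1 each. Where 1 value stands for a gene, it is that of its brightest probe set, judged by the mean of the 4 arrays. For Rgmb and Acvr1 this choice depends on the hCD2-iCre x Gfi1fl/fl-labelled arrays, where the chosen probe sets were high. On the WT-labelled arrays alone another probe set of each was brightest, with log2 differences of 0.49 for Rgmb and 0.21 for Acvr1. The single values, rank and calls of these genes below rest on that choice.

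The study profiled CD4+CD8+ double-positive thymocytes, a developing T cell stage with both coreceptors on its surface, sorted from C57BL/6 mice and hybridised to 4 Affymetrix arrays. The titles give 2 arrays as WT and 2 as hCD2-iCre x Gfi1fl/fl, that is, mice whose Gfi1 alleles carry loxP sites and which express Cre recombinase under human CD2 control, a driver active in developing lymphocytes. The labels used here name no treatment and no age, and the WT mice are not described as carrying the recombinase, so an effect of Cre and an effect of the floxed gene cannot be told apart. The labels do not say whether replicates were separate animals, so every error below measures the spread between these arrays alone.

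Facts of the whole series bear on how the labels are read. Gfi1, the zinc-finger repressor that the cross targets, gave 10.17 and 10.08 on the WT arrays and 11.47 and 11.32 on the hCD2-iCre x Gfi1fl/fl arrays, on the log2 scale of the deposited signals. Its 1 named probe set was thus higher, not lower, under the deletion label (difference 1.27 ± 0.14, SE; limma, adjusted p = 0.00781, not called without WT replicate 2), and whether it lies in the deleted part is not given in the sources used here. Groups are therefore called by their labels throughout: WT-labelled and hCD2-iCre x Gfi1fl/fl-labelled arrays. Markers of the labelled cell type were set against the array medians (3.53 to 3.55), a low bar that some markers of other cells also passed. All 9 measured double-positive genes, Cd4, Cd8a, Rag1 and Dntt among them, lay above these medians on all 4 arrays, which does not show how pure the cells were. Of these, Dntt, the terminal transferase gene, was the one called between the labels, at 12.23 and 12.39 on the WT-labelled and 11.65 and 11.60 on the hCD2-iCre x Gfi1fl/fl-labelled arrays (-0.69 ± 0.11, SE; limma, adjusted p = 0.0413), and a part of this shift in the results below was not tested. Of markers of other cells, 6 of 8 for thymic epithelium, 8 of 10 for stroma and endothelium, 4 of 8 for myeloid cells, 3 of 4 for B cells and 4 of 5 for gamma-delta and innate lymphoid cells lay below those medians on every array, Foxn1, Col1a1, Pax5 and Sox13 included. Epcam, Ccl25, Il17re, Pecam1, Lyz2 and Cd79b lay above them on all 4 arrays. Cd79b read 8.26 and 7.88 on the WT-labelled and 7.41 and 6.28 on the other arrays (-1.23 ± 0.38, SE; limma, adjusted p = 0.347). Lyz2 read 4.34 and 3.80 against 4.41 and 4.76. The mean over 4 B cell markers was 4.43 and 4.21 against 4.19 and 3.88. The mean over 8 epithelial markers was 3.78 and 3.55 on the WT-labelled and 3.89 and 3.77 on the hCD2-iCre x Gfi1fl/fl-labelled arrays. As 6 of these 8 were dim on every array, this mean says little about the other genes of the list. Within that list the adhesion gene Epcam had the largest difference, at 6.89 and 6.06 against 8.63 and 7.69 (limma, adjusted p = 0.163). The part of other cells in the results below was not tested.

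BMP and TGF-beta ligands are secreted dimers that bring together type II and type I receptor serine kinases. The type I receptor then phosphorylates receptor Smads: Smad1, Smad5 and Smad9 in the BMP branch and Smad2 and Smad3 in the TGF-beta branch. These enter the nucleus with Smad4, while the inhibitory Smads Smad6 and Smad7 dampen the signal. Repulsive guidance molecule b, the product of Rgmb (also called Dragon), is a membrane-anchored BMP co-receptor that also binds neogenin and PD-L2, and betaglycan, the product of Tgfbr3, presents TGF-beta and inhibin to the signalling receptors. In the thymus, BMP signals restrain early thymocyte growth, and TGF-beta signals act in T cell survival, in regulatory T cells and in unconventional lineages.

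Start-site windows of Rgmb, Acvr1 and Tgfbr2 are shown first. Rgmb and Acvr1 were called higher, Acvr1 by only 1 of its 3 probe sets, and Tgfbr2 was not called. Tgfbr3, which was also called, had no window to show. Gfi1 is a DNA-binding repressor, but its part in any of these differences was not tested. The windows run from 250 bases before to 50 after an annotated start, are printed 5′ to 3′ on the gene's strand, and come from RefSeq on GRCm38.p6. Capitals mark AATC, the core of Gfi1 sites, on either strand (GATT on the printed one). Rgmb has 3 annotated starts, and those at chr17:15831197-15831496 and chr17:15826517-15826816, both on the minus strand, do not overlap each other. Acvr1 lies at chr2:58566779-58567078 on the minus strand. Tgfbr2, whose signal was nearly the same under both labels, lies at chr9:116175314-116175613 on the minus strand.

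Rgmb, chr17:15831197-15831496: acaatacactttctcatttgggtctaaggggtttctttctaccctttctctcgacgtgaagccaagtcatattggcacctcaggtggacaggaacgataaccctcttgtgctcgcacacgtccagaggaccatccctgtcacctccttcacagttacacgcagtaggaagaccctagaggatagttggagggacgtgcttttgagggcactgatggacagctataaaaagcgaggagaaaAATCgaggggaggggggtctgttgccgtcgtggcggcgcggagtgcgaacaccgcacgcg
Rgmb, chr17:15826517-15826816: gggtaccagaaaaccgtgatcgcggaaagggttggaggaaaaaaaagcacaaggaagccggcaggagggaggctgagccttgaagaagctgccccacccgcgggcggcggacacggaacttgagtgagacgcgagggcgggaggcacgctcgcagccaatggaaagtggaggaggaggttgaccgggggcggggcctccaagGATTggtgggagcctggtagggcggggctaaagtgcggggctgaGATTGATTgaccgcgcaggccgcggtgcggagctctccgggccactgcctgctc
Acvr1, chr2:58566779-58567078: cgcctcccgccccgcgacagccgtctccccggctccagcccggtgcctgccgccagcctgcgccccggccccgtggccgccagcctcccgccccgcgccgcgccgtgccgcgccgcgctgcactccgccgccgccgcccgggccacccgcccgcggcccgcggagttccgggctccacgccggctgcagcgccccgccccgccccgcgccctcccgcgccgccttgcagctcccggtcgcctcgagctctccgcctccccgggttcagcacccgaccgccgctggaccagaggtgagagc
Tgfbr2, chr9:116175314-116175613: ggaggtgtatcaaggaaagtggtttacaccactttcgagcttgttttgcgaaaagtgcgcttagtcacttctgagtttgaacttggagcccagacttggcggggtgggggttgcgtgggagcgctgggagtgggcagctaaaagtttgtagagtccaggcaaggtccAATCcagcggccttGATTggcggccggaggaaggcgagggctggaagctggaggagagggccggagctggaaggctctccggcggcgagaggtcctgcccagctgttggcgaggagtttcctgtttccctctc

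The AATC core occurred once in the first Rgmb window and 3 times in the second. It occurred in 0 places in the Acvr1 window and in 2 in that of Tgfbr2. So short a word is common: 73.1% of all 32851 windows of this length held it. The Smad box GTCT, on either strand, occurred 3 times in the first Rgmb window and once each in the second and in those of Acvr1 and Tgfbr2 (88.0% of all windows hold it). The GC-rich BMP element GGCGCC was in none of the 4 printed windows, while the remaining Rgmb window, chr17:15831016-15831315, and those of Bmpr1a, Bmpr2, 1 of the 2 of Tgfbr1 and 2 of the 3 of Smad5 held it once each, against 11.9% of all windows. Those 2 Smad5 windows overlap and share the same match. The windows with this element had a GC share of 59.3% to 79.3%, so the share of all windows is not a matched background. A match is a description of the letters and not a measured site. The GC share was 54.0% and 65.3% in the printed Rgmb windows, 83.7% in that of Acvr1 and 59.0% in that of Tgfbr2, against a median of 52.7% over all windows. Windows were searched for 8 of the 10 genes, without Tgfbr3 and Smad7.

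On the hCD2-iCre x Gfi1fl/fl-labelled arrays the co-receptor genes Rgmb and Tgfbr3 and the type I receptor gene Acvr1 were higher, the BMP Smads Smad1 and Smad5 and the type II receptor gene Bmpr2 lay above the WT-labelled arrays by smaller steps, and the TGF-beta receptor genes Tgfbr1 and Tgfbr2 were level. In the plot of the 10 genes by array, 6 have groups that do not overlap with the hCD2-iCre x Gfi1fl/fl label on top, which was so for 16.0% of all 17097 genes. The median difference of the 10 was 0.74, against -0.02 over all genes. The limma fit over all genes called 3 of the 10, all higher (Rgmb, Tgfbr3 and Acvr1), at a Benjamini-Hochberg adjusted p of 0.05. It called 1.11% of all genes, 0.942% as higher and 0.170% as lower. Since the 10 were selected on this contrast, nothing is read from these shares. The count of 3 fell to 1 without WT replicate 1, and to 1 when all probe sets of a gene were averaged. Rgmb was the one left in both.

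**Figure D1:**
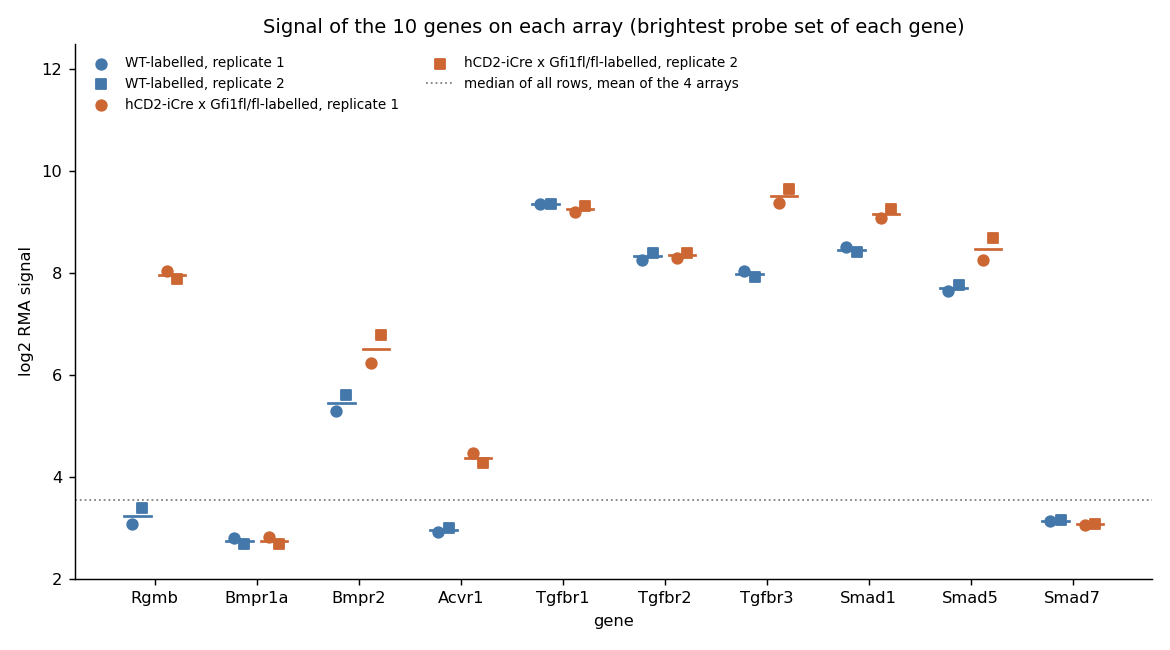
Log2 RMA signal (y axis) of the brightest probe set of each of the 10 genes (x axis) on the 4 arrays. Points are single arrays, horizontal bars are the means of 2 arrays, and the dotted line is the mean of the array medians. Rgmb shows the widest gap, from a WT-labelled mean of 3.24 to a hCD2-iCre x Gfi1fl/fl-labelled mean of 7.97, while Tgfbr1, Tgfbr2, Bmpr1a and Smad7 differ by less than 0.1.

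Rgmb had the largest difference of the group. Its brightest probe set read 3.08 and 3.40 on the WT-labelled arrays, below the array medians, and 8.05 and 7.89 on the hCD2-iCre x Gfi1fl/fl-labelled arrays. The difference was 4.73 ± 0.25 (SE, n = 2 arrays per label), a 26.6-fold step in signal, and ranked at place 11 of all 17097 genes from the largest increase. The lowest hCD2-iCre x Gfi1fl/fl-labelled array stood 4.50 above the highest WT-labelled one, against 0.32 between the WT-labelled arrays and 0.16 between the others. Because the WT signal sits where RMA flattens differences, the fold is a ratio of signals and not of transcript amounts.

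The other Rgmb probe sets gave smaller steps in the same direction. The second, built on a different cDNA sequence, read 3.32 and 3.39 against 6.27 and 6.47, a difference of 3.01 ± 0.22 (SE). The third, built on the same cDNA as the second, read 3.38 and 3.09 against 4.64 and 5.56, a difference of 1.86 ± 0.31 (SE). It is the one whose hCD2-iCre x Gfi1fl/fl-labelled arrays differ most from each other, by 0.93. The last shares its cDNA with the brightest one and read 3.61 and 3.71 against 4.24 and 4.06, a difference of 0.49 ± 0.17 (SE). All 4 thus have non-overlapping groups, but their differences span 0.49 to 4.73, and the mean over the 4 gives 2.52. The size of the Rgmb difference therefore depends on the probe set, also between probe sets of 1 cDNA. Across the 28898 named probe sets, 4 of the 24 described here were called higher, 2 of them of Rgmb, against 0.754% of all.

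**Figure D2:**
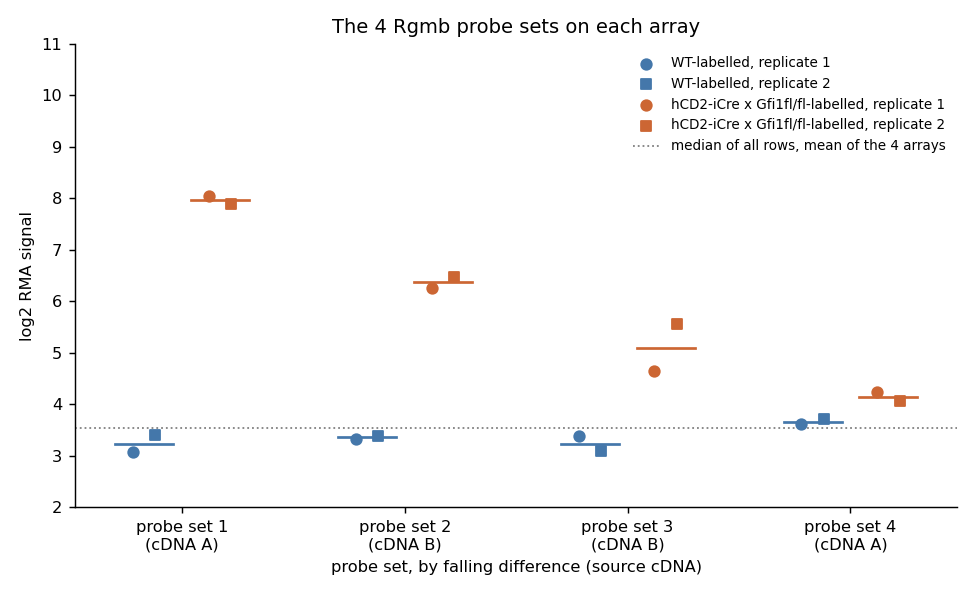
Log2 RMA signal (y axis) of the 4 Rgmb probe sets (x axis, with the source cDNA as A or B) on the 4 arrays. Points are arrays, bars are means of 2 arrays, and the dotted line is the mean of the array medians. All 4 probe sets start between 3.24 and 3.66 on the WT-labelled arrays and part to between 4.15 and 7.97 under the other label.

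Tgfbr3, which encodes betaglycan, was the other co-receptor gene with a clear step. It read 8.04 and 7.93 on the WT-labelled arrays and 9.38 and 9.65 on the hCD2-iCre x Gfi1fl/fl-labelled arrays. The difference was 1.53 ± 0.20 (SE), or 2.89-fold, with a gap of 1.34 between the groups and no more than 0.27 between arrays of 1 label. Unlike Rgmb, it started well above the array medians, so the step lies in the part of the range where RMA signals are less flattened. Its second probe set lay below the medians on all 4 arrays, at 3.08 and 2.82 against 3.54 and 3.15, with a difference of 0.39 ± 0.16 (SE). The call of Tgfbr3 was lost without WT replicate 1 or WT replicate 2, and with the mean of both probe sets, which gave 0.96.

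Among the type I receptors, Acvr1 (ALK2, a receptor for BMPs) read 2.92 and 2.998 on the WT-labelled arrays and 4.47 and 4.28 on the hCD2-iCre x Gfi1fl/fl-labelled arrays. The difference was 1.41 ± 0.15 (SE), or 2.67-fold in signal, from a level near the lower quartile of the arrays (2.97 to 3.02). The other 2 Acvr1 probe sets gave no such step. They read 3.41 and 3.09 against 3.57 and 3.35, and 3.24 and 3.05 against 2.93 and 3.08, with groups that overlap and differences of 0.21 and -0.14. The Acvr1 difference therefore rests on 1 of 3 probe sets of the same cDNA. Its call was lost without WT replicate 1 and with the mean of the 3, which gave 0.50.

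Tgfbr1 (ALK5, the TGF-beta type I receptor) read 9.36 on each WT-labelled array and 9.21 and 9.33 on the hCD2-iCre x Gfi1fl/fl-labelled arrays. The difference was -0.09 ± 0.17 (SE), with a 95% interval of -0.49 to 0.31 from the limma fit. Its other probe sets, at group means of 2.87 to 3.23, lay below the array medians throughout. Bmpr1a (ALK3, a BMP type I receptor) was represented by 1 probe set, at 2.81 and 2.69 against 2.82 and 2.68, with a difference of 0.0042 ± 0.086 (SE). Its 95% interval was -0.20 to 0.21. These values are under the lower quartile of every array, so a fall of Bmpr1a could not be shown with this probe set. Whether the probe set would show a rise is not known.

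Of the type II receptors, Bmpr2, the main BMP type II receptor gene, read 5.29 and 5.62 on the WT-labelled arrays and 6.23 and 6.78 on the hCD2-iCre x Gfi1fl/fl-labelled arrays. The difference was 1.06 ± 0.29 (SE), or 2.08-fold, with a gap of 0.62 between the groups. The arrays of the hCD2-iCre x Gfi1fl/fl label were 0.55 apart, and of the alternatives run, Bmpr2 was called in the one without hCD2-iCre x Gfi1fl/fl replicate 1. A second Bmpr2 probe set, below the array medians, overlapped between the labels at 3.22 and 3.02 against 3.04 and 3.42. Tgfbr2, the type II receptor of TGF-beta, was level, at 8.25 and 8.40 against 8.29 and 8.40. Its difference of 0.02 ± 0.20 (SE) had a 95% interval of -0.45 to 0.49, and its other probe sets, near or below the array medians, differed by 0.12 and 0.03.

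Smad1 and Smad5, of the BMP branch, were above the WT-labelled level in all of their probe sets. Smad1 read 8.51 and 8.41 on the WT-labelled arrays against 9.08 and 9.26, a difference of 0.71 ± 0.19 (SE), and its second probe set gave 0.74 ± 0.23 (SE). Smad5 read 7.66 and 7.77 against 8.26 and 8.69, a difference of 0.76 ± 0.23 (SE), and its other probe sets gave 1.19 ± 0.23 and 0.68 ± 0.23 (SE). The groups overlap in none of these 5 probe sets, yet no Smad1 or Smad5 probe set was called in the fit over all probe sets or genes. Smad7, the inhibitory Smad, read 3.13 and 3.15 against 3.06 and 3.08 with its 1 probe set (-0.08 ± 0.10, SE), which lay below the array medians and could not show a fall.

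Over all 24 probe sets, 13 had non-overlapping groups with the hCD2-iCre x Gfi1fl/fl label on top, against 15.5% of all 28898 named probe sets, and the median difference was 0.44, against -0.02. The plot of difference against signal shows how this share is spread over the range. Of the 10 probe sets above the array medians on every array, 8 had such groups, and the exceptions were those of Tgfbr1 and Tgfbr2. Of the 8 below the medians on every array, 1 did, that of Tgfbr3, and their differences lay between -0.14 and 0.39. The remaining 6 were above the medians on some arrays only, and 4 of these, 3 of Rgmb and 1 of Acvr1, had such groups. Those 4 passed the median only through the hCD2-iCre x Gfi1fl/fl-labelled arrays.

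**Figure D3:**
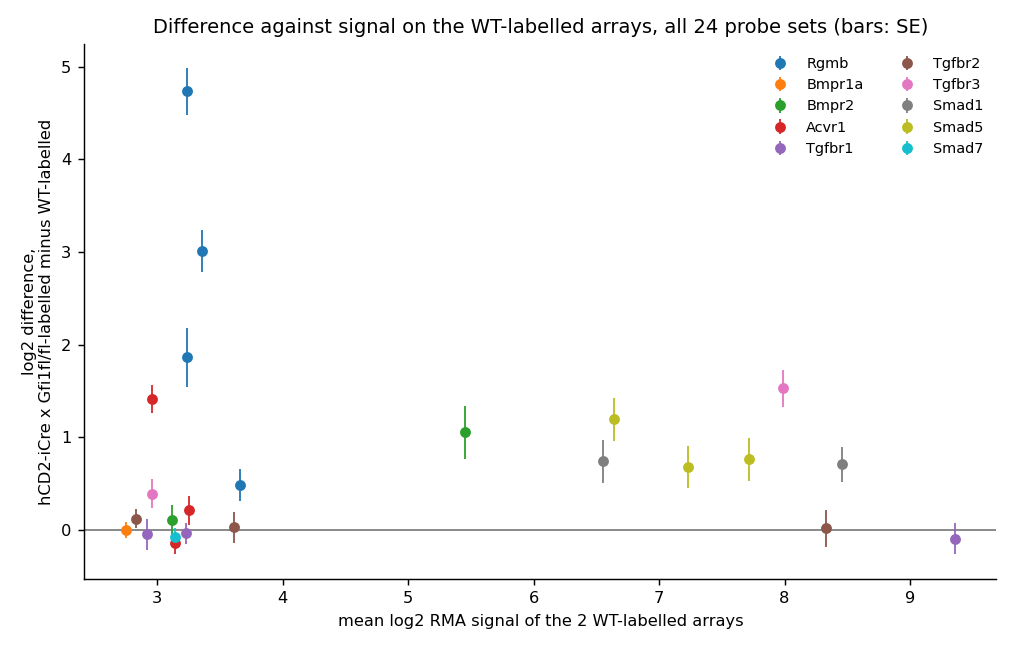
Log2 difference between the labels (y axis, hCD2-iCre x Gfi1fl/fl minus WT) of each of the 24 probe sets against its mean log2 signal on the 2 WT-labelled arrays (x axis). Colours are genes and bars are standard errors of the limma fit. The probe sets of Smad1 and Smad5 lie between 0.68 and 1.19, those of Tgfbr1 and Tgfbr2 near 0 at any signal, and the 4 of Rgmb spread from 0.49 to 4.73 at nearly the same low WT signal.

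The hCD2-iCre x Gfi1fl/fl-labelled arrays differed from each other in cell cycle genes, with a mean over 11 markers of 8.25 on replicate 1 and 10.13 on replicate 2, against 8.98 and 9.63 on the WT-labelled arrays. Of the 6 genes with non-overlapping groups, Bmpr2, Tgfbr3, Smad1 and Smad5 were also higher on hCD2-iCre x Gfi1fl/fl replicate 2 than on replicate 1, by 0.18 to 0.55. Rgmb and Acvr1 were lower there by 0.16 and 0.19. Between the WT-labelled arrays, Bmpr2, Smad5, Rgmb and Acvr1 were higher on replicate 2, by 0.08 to 0.33. Tgfbr3 and Smad1 were lower on WT replicate 2 (differences of -0.11 and -0.10). The part of the cell cycle difference in these values was not tested. In bulk RNA of sorted cells, more cells with a transcript and more transcript per cell cannot be told apart.

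Beyond the 10, 97 other genes of the pathway were measured, listed by role, and the limma fit called 2 of them, both higher, beside 0.942% of all genes called higher. With so few calls, the share of the 97 is not read as a result about the pathway. Both called genes were among 18 genes known in other cells as targets of BMP or TGF-beta signals. Id2, an inhibitor of E proteins, read 7.41 and 6.73 on the WT-labelled arrays and 8.97 and 8.66 on the hCD2-iCre x Gfi1fl/fl-labelled arrays, and rose by 1.74 ± 0.28 (SE; limma, adjusted p = 0.0429). Snai2, a zinc-finger repressor known from epithelial-mesenchymal transition, read 2.92 and 2.80 against 3.74 and 3.60 and rose by 0.81 ± 0.12 (SE; limma, adjusted p = 0.0274), with WT-labelled values below the lower quartile of the arrays. The rise of Id2 was known when the list was drawn up, so it is no independent sign of a change in the pathway. Neither gene was called without WT replicate 2 (limma, adjusted p = 0.167 and 0.190) or without the intensity trend (0.106 each), and Snai2 was not called without WT replicate 1 (0.104). Of the 16 not called, Id1, the classical BMP target, had the largest difference, at 3.92 and 3.68 against 5.96 and 4.71 (1.53 ± 0.39, SE; adjusted p = 0.205, limma). Gadd45b, a stress-inducible TGF-beta target, followed with 1.25 ± 0.34 (SE; adjusted p = 0.230, limma). Both were higher on hCD2-iCre x Gfi1fl/fl replicate 1 than on replicate 2, the reverse of the order in Smad1 and Smad5. Their values therefore depend on the array: Id1 gave 2.16 and was called without hCD2-iCre x Gfi1fl/fl replicate 2 (limma, adjusted p = 9.89e-05), but gave 0.91 without replicate 1 (0.0838). Gadd45b gave 1.68 without hCD2-iCre x Gfi1fl/fl replicate 2 (limma, adjusted p = 0.00479) and 0.82 without replicate 1 (0.329).

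None of the other lists held a called gene in the limma fit. Of 14 further receptors and co-receptors, 2 had an unadjusted p under 0.05. Bambi, a decoy receptor without a kinase domain, read 6.11 and 5.27 on the WT-labelled and 4.34 and 3.69 on the hCD2-iCre x Gfi1fl/fl-labelled arrays (-1.67 ± 0.36, SE; adjusted p = 0.116, limma), and was called without hCD2-iCre x Gfi1fl/fl replicate 1 (limma, adjusted p = 0.00231) and with the replicate number as a block, but not when any other array was left out (0.0608 to 0.346). Acvr2a, an activin type II receptor, read 5.29 and 4.81 against 5.98 and 6.22 (1.05 ± 0.27, SE; adjusted p = 0.213, limma). The neogenin gene Neo1 and the PD-L2 gene Pdcd1lg2, partners of the Rgmb product, lay below the array medians on all 4 arrays, as did the related co-receptor genes Rgma and Hjv. So of the 3 repulsive guidance molecule genes, Rgmb alone had signals above the medians on any array, judged by the brightest probe set of each. Those were the hCD2-iCre x Gfi1fl/fl-labelled arrays, and Rgmb was selected for being high there. On the WT-labelled arrays this Rgmb probe set lay below the medians too, at 3.08 and 3.40.

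Of 5 further Smads, 1 had an unadjusted p under 0.05. Smad3, a receptor Smad of the TGF-beta branch, read 8.50 and 8.37 against 9.23 and 9.48 (0.92 ± 0.19, SE; adjusted p = 0.105, limma), and was called without hCD2-iCre x Gfi1fl/fl replicate 1 (limma, adjusted p = 0.026), but not when any other array was left out (0.131 to 0.433). With the mean of its 3 probe sets, Smad3 differed by only 0.38 (limma, adjusted p = 0.667), so its difference depends on the probe set. Smad4, the shared partner, differed by 0.35 ± 0.16 (SE; adjusted p = 0.659, limma). Smad6 and Smad9, the latter a further BMP-branch Smad, lay below the array medians throughout, as did the inhibitory Smad7. The groups of Smad9 overlap, with a difference of 0.10 ± 0.11 (SE).

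Ligands and extracellular antagonists were mostly dim: 15 of 22 genes in each list lay below the array medians on all 4 arrays, Bmp2 and Bmp4 among the ligands. Of the ligands, 1 of 22 had an unadjusted p under 0.05 (limma), Bmp7, at 4.44 and 4.84 against 3.94 and 3.77 (-0.78 ± 0.22, SE; adjusted p = 0.246), and Tgfb1 differed by -0.43 ± 0.21 (SE; adjusted p = 0.706, limma). Of 22 antagonists and latency proteins, 0 had an unadjusted p under 0.05, with Dand5 and Cer1 at -0.33 and -0.26 as the largest differences. Of 17 intracellular regulators, 3 had one (limma). Tgif1, a co-repressor that binds Smads, read 6.82 and 6.60 against 7.58 and 7.76 (0.96 ± 0.23, SE; adjusted p = 0.169), and Skil, another Smad co-repressor, differed by 0.45 ± 0.19 (SE; adjusted p = 0.581, limma). The median difference over the 97 genes was -0.01, close to that of all genes.

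**Figure D4:**
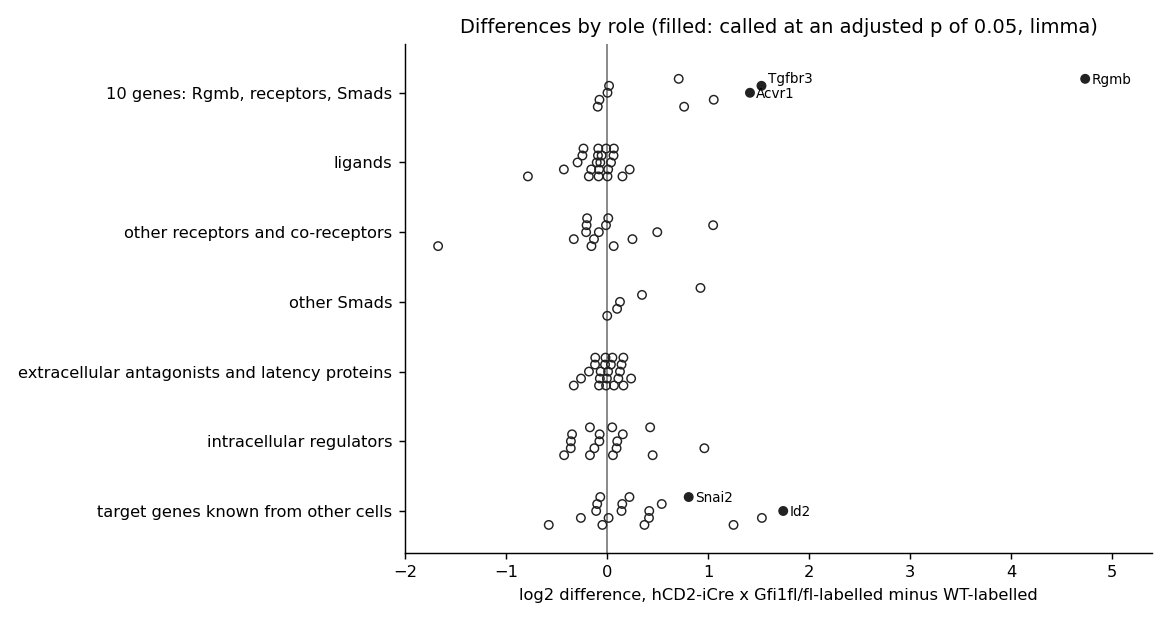
Log2 difference between the labels (x axis, hCD2-iCre x Gfi1fl/fl minus WT) of single genes (points), by role (rows; vertical offsets within a row only separate points). Filled points were called by limma at an adjusted p of 0.05 over all 17097 genes. The called genes are Rgmb, Tgfbr3 and Acvr1 in the top row and Id2 and Snai2 among the targets, and the ligand and antagonist rows lie between -0.78 and 0.24.

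The genes whose signals followed Rgmb most closely were Grhl3, Cdc14b, Il6ra, Kctd12 and Klf2. Likeness was the root mean square distance over 4 arrays between log2 values centred on each gene's mean, and it was 0.21 for Grhl3, an epithelial grainyhead factor, 0.27 for Cdc14b, a phosphatase, 0.28 for Il6ra, the interleukin-6 receptor chain, 0.32 for Kctd12 and 0.34 for Klf2, a factor of T cell quiescence and migration. Il6ra, for example, read 3.26 and 3.56 on the WT-labelled arrays against 7.72 and 7.46. With 4 arrays in 2 groups, such likeness says little more than that the steps between labels, 4.19 to 5.20, were of similar size.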

How the data were processed

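Log2 RMA signals per probe set were deposited by the authors for 4 arrays of 45037 rows each. The submitters' processing notes list RMA and Affymetrix Expression Console 1.1, without their order, and the labels' protocols give biotin labelling by 3' in vitro transcription. The log2 scale was read from the values (2.19 to 13.52, nearly equal quartiles). No detection calls were used, and RMA compresses low signals. The number of arrays limits the precision.

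Of the rows, 28898 had exactly 1 gene symbol in the platform annotation, for 17097 genes. The brightest probe set stood for a gene. The comparison used limma 3.58.1 in R 4.3.3 (lmFit, then eBayes), with an intensity trend, no filter and no block, adjusted by Benjamini-Hochberg over all genes. The procedure was tested on simulated data. Folds are base-2 antilogs of differences. Alternatives were other scalings, filters, priors and probe set rules, the linear signal, a replicate block and leaving out each array. The named genes are the 10, Gfi1, the 5 nearest to Rgmb and, per pathway list, the called genes and the 2 largest uncalled differences. Other genes are named only to show what a list held, and were picked after their values were seen. The 10 genes and all lists were chosen with earlier results of these data known. Figures were drawn with matplotlib 3.10.9.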

Additional observations from a re-analysis of the deposited data

How the results depend on the processing

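The difference of Rgmb lay between 2.52 (mean of its probe sets) and 4.89 over 14 alternatives, which is a description, since Rgmb was selected on this contrast. Those of Bmpr2, Acvr1, Tgfbr3, Smad1 and Smad5, whose groups do not overlap, stayed above 0 and are likewise no sign of stability. Those of Bmpr1a and Tgfbr2, close to 0, changed sign in 2 each by less than the spread between replicates. Of the 10 genes, 1 was called with the mean of all probe sets, and 1 to 4 when an array was left out. Of the 97 pathway genes, 1 was called without the dimmest 50% (36 tested), 0 without the intensity trend (limma; 13 with an unadjusted p under 0.05), and 0 to 4 when an array was left out, the 0 without WT replicate 2 (16 with an unadjusted p under 0.05). Of all genes, 190 were called, and 103 to 475 when an array was left out: 105 and 103 without WT replicate 1 and 2, and 475 and 467 without hCD2-iCre x Gfi1fl/fl replicate 1 and 2, in fits where the lone array of a label is assumed to vary like the others. The causes were not tested. Replicates are numbered 1 and 2 under both labels, but no source used here ties equal numbers together, and deviations of same-numbered arrays correlated with r = 0.301 across genes. With the replicate block, 183 genes, 3 of the 10 and 3 pathway genes (Bambi in addition) were called. Without detection calls, signals near the lower quartile cannot show a fall.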
